A study of Mus musculus with 23 samples.

Results

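The genes described here are 9 genes of the interferon response, which were picked by name: Stat2, Irf1, Irf7, Irf8, Irf9, Ifit1, Ifit3, Isg15 and Bst2. Each symbol matched 1 of the 55573 gene identifiers of the count table, and all 9 passed the filter on low counts that left 13049 genes for testing. They were measured by RNA sequencing in quadriceps muscle of 23 mice of the strain labelled C57Bl6, C57BL/6J in the study's methods, in a study of how the sexes differ in their response to excess glucocorticoid. Mice were 8 to 10 weeks old, carried a pellet under the skin for 14 days and were fasted for 5 hours before the muscle was taken. The treated mice had a pellet of 50 mg corticosterone with 50 mg cholesterol, and the vehicle mice had a cholesterol pellet. There were 6 vehicle females, 5 corticosterone-treated females, 6 vehicle males and 6 corticosterone-treated males, each mouse a separate library and named F or M with its number in the labels. Corticosterone is the main glucocorticoid of the mouse, and the pellet delivers it continuously, so the groups model a constant excess of the hormone in young adults of a single strain.

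Interferons are secreted proteins that switch on antiviral genes in the cells they reach. Type I interferons act through a receptor whose kinases phosphorylate STAT2, which joins IRF9 in ISGF3, the complex that binds the interferon-stimulated response element in front of its target genes. Interferon gamma acts through its own receptor and the gamma-activated sequence, and IRF1 is among the genes it induces. Glucocorticoids are used as drugs because they damp inflammatory signalling, and muscle fibers, macrophages and the other cells of a muscle can all express interferon-stimulated genes.

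The mice differed little in depth, with 20904150 to 21984477 counts on genes. Among the treated females, mouse F8 stood apart in these genes: it was below the vehicle female mean in 9 of 9, whereas F2, F4, F6 and F10 were above it in 7 or 8 of 9. The glucocorticoid target Fkbp5 was nevertheless at 201 CPM in F8, against 12.5 to 48.4 CPM in the vehicle females, so by that gene F8 matched its label. F8 is kept in all results unless stated, and where a call among the 9 genes changes without it, that value is given. Mice F6 and F10 carried the highest levels of macrophage marker genes of all 23 mice, as described further on. Muscle fiber markers such as Acta1 and Myh4 summed with 4 others to 61700 to 160000 CPM (counts per 1000000 counts, scaled) in every mouse, which fits the labelled tissue. In such bulk tissue, fewer cells of a type and less RNA per cell cannot be told apart.

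The promoters of these genes were searched for the interferon-stimulated response element and the gamma-activated sequence. The stretches below show how the matches are arranged in the genes that had one. They were taken from the RefSeq promoter windows of GRCm38.p6, which reach from 250 bases before to 50 bases after the annotated start, and each is written 5′ to 3′ on the strand of its gene, with the matched bases in capitals. The interferon-stimulated response element was searched as GAAA, any 2 bases and GAAA again, and the gamma-activated sequence as TTC, any 3 bases and GAA. Both strands were searched, and overlapping matches were counted apart. On the opposite strand the first reads TTTC, any 2 bases and TTTC, while the second reads the same on both.
Stat2: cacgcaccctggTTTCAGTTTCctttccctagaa
Ifit1: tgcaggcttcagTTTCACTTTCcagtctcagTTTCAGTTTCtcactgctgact
Ifit3: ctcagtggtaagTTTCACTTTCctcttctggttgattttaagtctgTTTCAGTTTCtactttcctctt
Isg15: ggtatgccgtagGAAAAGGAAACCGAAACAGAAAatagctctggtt
Bst2: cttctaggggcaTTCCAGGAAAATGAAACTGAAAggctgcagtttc
Irf1: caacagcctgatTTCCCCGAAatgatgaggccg
Irf8: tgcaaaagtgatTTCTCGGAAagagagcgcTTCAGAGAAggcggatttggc

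The Stat2 stretch lies at chr10:128270264-128270297 (+), that of Ifit1 at chr19:34640773-34640825 (+), that of Ifit3 at chr19:34583361-34583428 (+) and that of Isg15 at chr4:156200863-156200908 (−). The Bst2 stretch lies at chr8:71537575-71537620 (−), that of Irf1 at chr11:53769912-53769944 (+) and that of Irf8 at chr8:120736175-120736225 (+). The response element was found in 5 of the 9 genes: once in Stat2, as 2 separate copies in Ifit1 and in Ifit3, as 3 overlapping copies in Isg15 and as 2 overlapping copies in Bst2. Of all 32851 promoter windows of the reference, 3.44% held it. The gamma-activated sequence was found in Irf1, in Irf8 as 2 copies, and in Bst2, where it overlaps the response element, and 8.30% of all windows held it. Neither string of letters was in the windows of Irf7 and Irf9. A match is a description of the sequence and does not show that a factor binds there.

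On levels scaled by exon length (CPM per kilobase, from here on only where stated), Bst2 was the highest of the 9 genes in each group and Irf8 the lowest. In vehicle females, Bst2 stood at 20.6 ± 5.90 CPM per kilobase (SD, n = 6), above the next gene, Isg15, at 4.67 ± 1.63 without overlap of the mice. The levels per kilobase of Isg15, Ifit3 (4.36 ± 1.38) and then Irf1 (3.46 ± 0.435) followed each other with overlapping ranges. After Irf1 the ranges separated, and Irf7, Irf9, Stat2 and Ifit1, between 2.06 ± 0.770 and 1.41 ± 0.359 CPM per kilobase, each overlapped the next. Irf8 was at 0.871 ± 0.0884 CPM per kilobase. In treated females the order changed, with Ifit3 at 11.7 ± 9.39 and Isg15 at 10 ± 5.24 CPM per kilobase behind Bst2 at 32.8 ± 10.8 (n = 5), each range overlapping the next, while in treated males Ifit3 stood at 3.69 ± 1.79 and Bst2 at 13.3 ± 3.87 CPM per kilobase (n = 6).

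The main finding of the comparisons was that treated males had lower levels of these genes than treated females. Between the treated sexes, 8 of 9 genes were called, at an adjusted p under 0.01 in the quasi-likelihood test of edgeR, adjusted by Benjamini-Hochberg over all 13049 genes, and all 8 were lower in males. Of all tested genes 23.3% were called in that comparison, 1215 higher and 1828 lower in males. The median log2 fold change of the 9 genes was −1.30, against −0.03 over all tested genes. Without F6 and F10, the 2 mice with the most macrophage marker RNA, 1 of 9 genes was called (Irf9), in a fit in which the calls over all genes went from 3043 to 533. The 8 genes still had an unadjusted p under 0.05 there, with estimates of −1.74 to −0.71, against −1.67 to −0.89 in all mice. Between the vehicle sexes, 0 of 9 genes were called by this test, by DESeq2 or by limma-voom, and 0 of 9 had an unadjusted p under 0.05, shares that were 0.958% and 13.2% over all tested genes. The median there was −0.21, against 0.00 over all genes.

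Within females, corticosterone raised Irf7 and Ifit1 and lowered Irf8, so that 3 of 9 genes were called, where 13.4% of all tested genes were called and 7.40% were called higher. The median log2 fold change of the 9 genes was 0.68, against 0.04 over all genes, and 7 of 9 were positive. With each sex fitted alone 0 of 9 were called by edgeR, with 8 at an unadjusted p under 0.05, and 0 with macrophage markers as a covariate, with 5; DESeq2 and limma-voom called 4 each. Without F8, 6 of 9 genes were called, all higher (Irf7, Irf9, Ifit1, Ifit3, Isg15 and Bst2), with 10.9% of all genes called higher in that fit. Within males, 1 of 9 genes was called, Irf1, which fell, where 26.3% of all genes were called and 13.1% were called lower. The median of the 9 in males was −0.19, against −0.02 over all genes.

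**Figure D1:**
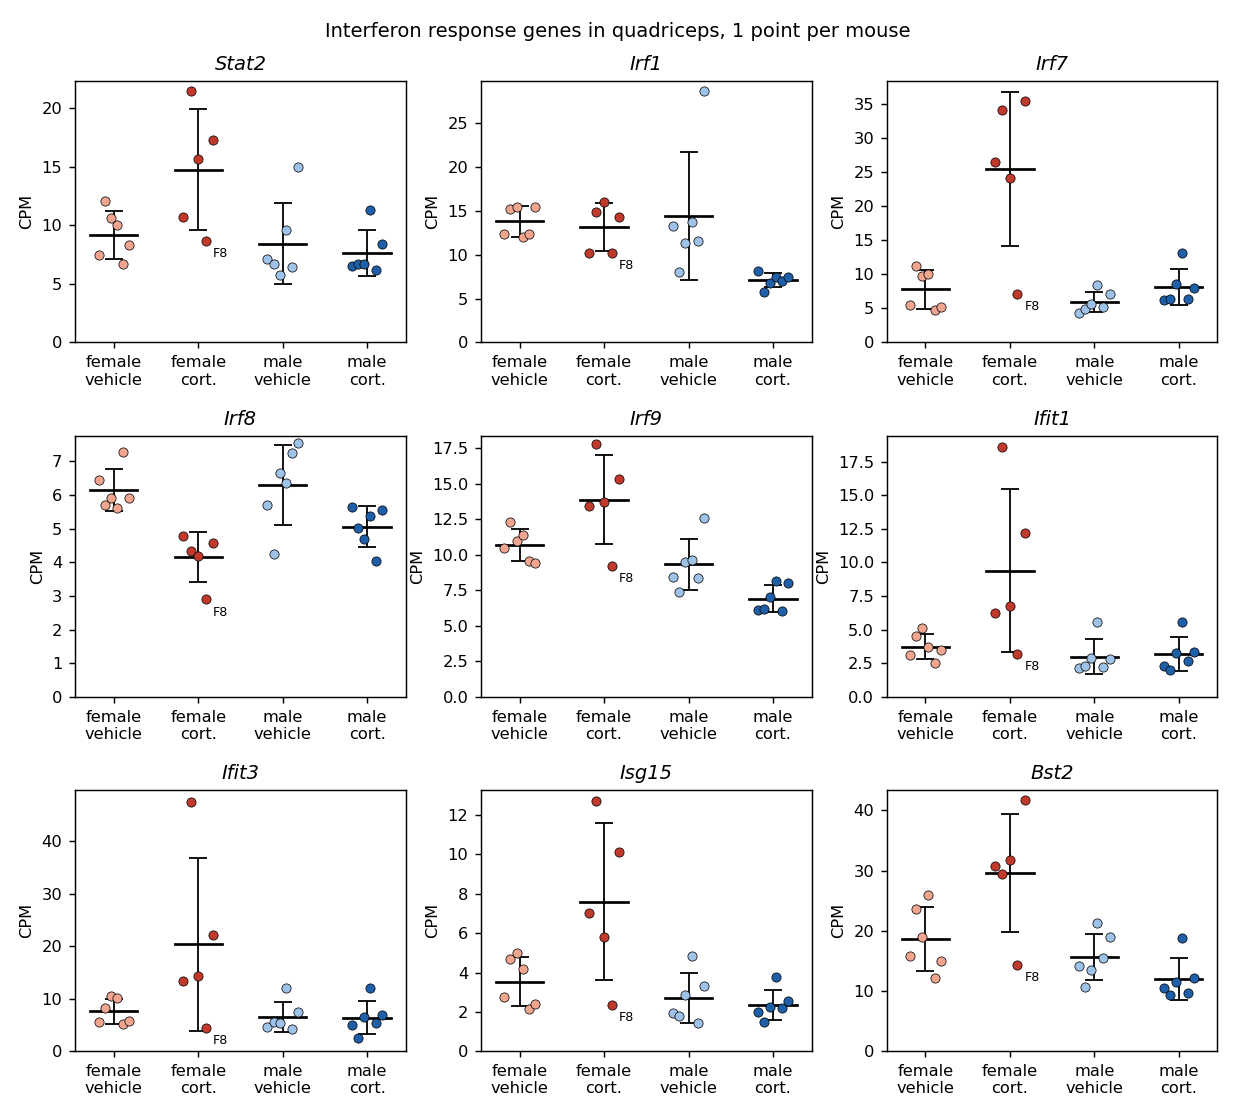
CPM of each of the 9 genes (vertical axes, each starting at 0 with its own scale) in the 23 mice, 1 point per mouse, by group; the horizontal bars are group means and the whiskers 1 SD. In Irf7, Ifit1, Ifit3, Isg15 and Bst2, 4 of the 5 treated females lie above the vehicle females while F8 lies among or below them, and in all 9 genes the treated males overlap the vehicle males.

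The difference between the male and the female response, tested as an interaction, was called in 0 of 9 genes, where 0.690% of all tested genes were called. Of the 9 genes, 8 had an unadjusted p under 0.05 in edgeR, in a comparison where 32.1% of all genes did, and their estimates were all negative, which means a lower response in males. The median of the 9 was −1.05, against −0.05 over all genes. DESeq2 called 1 of 9 (Irf9, adjusted p = 0.00473) and limma-voom with sample quality weights called 2 (Irf9, adjusted p = 0.00485, and Bst2, adjusted p = 0.00721). Without F8, edgeR called 3 of 9, namely Irf7 (−1.5 ± 0.34, SE), Irf9 (−0.92 ± 0.18) and Bst2 (−1.23 ± 0.29), where 5.04% of all genes were called lower in that fit. So whether the response of these genes differed between the sexes turned on the tool and on 1 mouse, while their difference in level between the treated sexes did not turn on F8: 8 of 9 genes were called with it and without it, where 17.6% of all genes were called lower in males without F8.

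**Figure D2:**
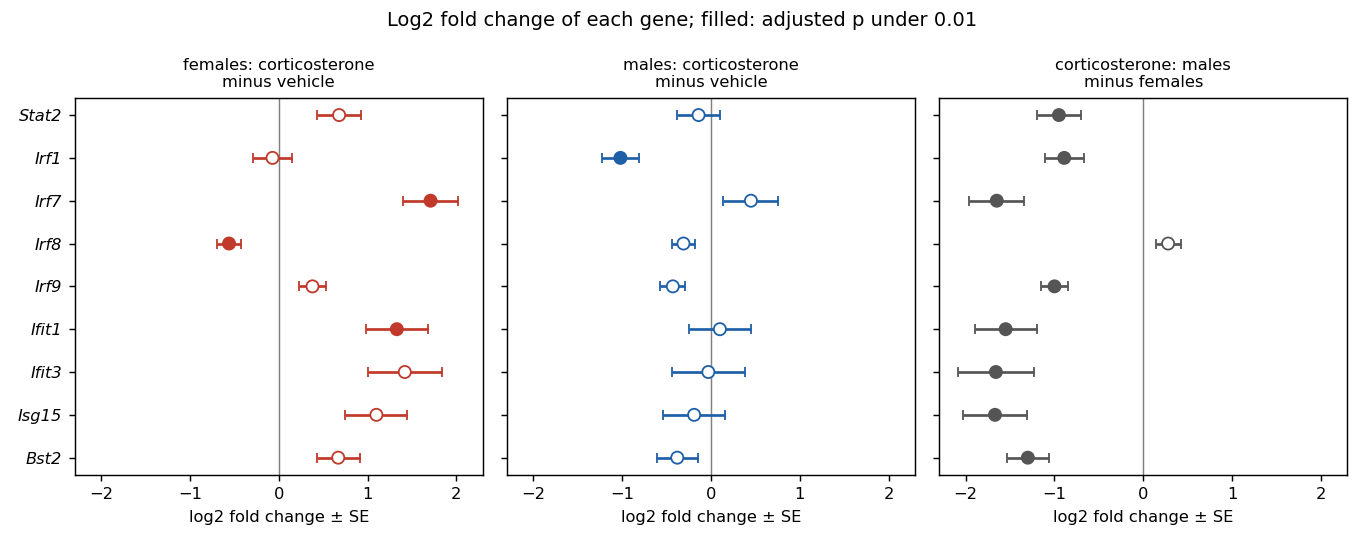
Log2 fold change (horizontal axes) of each of the 9 genes with its standard error, for corticosterone against vehicle in females and in males and for treated males against treated females; filled points have an adjusted p under 0.01. In females 7 of 9 points lie right of 0, in males 7 of 9 lie left of it, and in the third panel 8 of 9 are filled and negative.

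Stat2 and Irf9, which encode subunits of ISGF3, differed between the treated sexes. Stat2 (chr10:128270559-128292849) ran from 6.74 to 12.1 CPM in vehicle females, with a median of 9.18, and in treated females it was 8.66 in F8, 10.7 in F2, 15.7 in F6, 17.3 in F10 and 21.5 in F4. Of the treated females, 3 of 5 were above all the vehicle females, and the groups overlapped. The log2 fold change was 0.68 ± 0.25 (SE), with an adjusted p of 0.0472 that misses the threshold. In males Stat2 had a median of 6.92 CPM under vehicle (5.73 to 15.0) and 6.72 under corticosterone (6.22 to 11.3), and its log2 fold change was −0.14 with a 95% interval from −0.62 to 0.33. The highest vehicle male, M11, and the highest treated male, M8, lay well above the medians of their groups. Treated males were 1.93-fold below treated females (log2 fold change −0.95 ± 0.25, adjusted p = 0.00547), and 5 of 6 of them were below all 5 treated females. This call was lost without any 1 of F4, F6, F10, M2, M4, M6 or M10, with estimates of −0.91 to −0.77 and adjusted p of 0.0128 to 0.0212.

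Irf9 (chr14:55603571-55610030) was the gene with the smallest p between the treated sexes. It stood at 9.20 CPM in F8, 13.4 in F2, 13.7 in F6, 15.3 in F10 and 17.8 in F4, and between 6.07 and 8.16 in the treated males, with a median of 6.60. All 6 treated males were below all 5 treated females, which 5.55% of all tested genes also showed. The fitted difference was −1.0 ± 0.15 (2.0-fold, adjusted p = 8.19e-05). Against vehicle, the estimates went opposite ways: 0.38 ± 0.15 in females (adjusted p = 0.059; vehicle 9.44 to 12.3 CPM, median 10.8) and −0.43 ± 0.14 in males (adjusted p = 0.0189; vehicle 7.37 to 12.6 CPM, median 8.99). Neither passed. Without F8 the estimate was 0.49 in females (adjusted p = 0.00772), and in males, where it stayed at −0.43, the adjusted p was 0.0074, in a fit that called 14.2% of all genes lower in males. In females, 4 of 5 treated mice were above all 6 vehicle mice and F8 was below them all.

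Irf7, the transcription factor that amplifies type I interferon production and is itself induced by ISGF3, had the largest rise of the 9 genes in females. Irf7 (chr7:141262706-141266481) ran from 4.79 to 11.3 CPM in vehicle females, with a median of 7.65, and reached 26.5 in F2, 34.1 in F4, 24.2 in F6 and 35.4 in F10, while F8 stood at 7.18. Thus 4 treated females were above all vehicle females and the fifth was within their range. The rise was 3.27-fold (log2 fold change 1.71 ± 0.31, adjusted p = 0.000585), 1.95 ± 0.25 on the log2 scale without F8, and 1.39 ± 0.37 with macrophage markers as a covariate (adjusted p = 0.0181, not a call). In males Irf7 had a median of 5.42 CPM under vehicle (4.40 to 8.37) and 7.23 under corticosterone (6.20 to 13.1). All 6 treated males were above the vehicle mean, but the groups overlapped and the log2 fold change, 0.45 with a 95% interval from −0.15 to 1.05, was not called (adjusted p = 0.252). Treated males were 3.14-fold below treated females (−1.65 ± 0.31, adjusted p = 0.000576), and 3 of the 6 were below all of them, F8 included.

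Irf1, a transcription factor induced by interferon gamma whose promoter window holds 1 gamma-activated sequence, was the gene that fell in males. It ran from 8.01 to 28.6 CPM in vehicle males, with a median of 12.4, and from 5.75 to 8.14 in treated males, with a median of 7.19 (chr11:53770014-53778374). Of the treated males, 5 of 6 were below all vehicle males, and M2 was just above the lowest of them. The fall was 2.03-fold (log2 fold change −1.02 ± 0.21, adjusted p = 0.000679). Mouse M11, at 28.6 CPM, was far above the other vehicle males, and without it the log2 fold change was −0.71 ± 0.14 (adjusted p = 0.000758). In females Irf1 stood at 10.2 CPM in F2, 10.2 in F8, 14.3 in F10, 14.8 in F4 and 16.0 in F6, over vehicle values of 12 to 15.4 with a median of 13.8. These groups overlapped, and the log2 fold change was −0.07 with a 95% interval from −0.50 to 0.36. The difference between the male and the female response was −0.95 ± 0.30 (adjusted p = 0.0434), which misses the threshold. All 6 treated males were below all 5 treated females (−0.89 ± 0.22, adjusted p = 0.00365), a call that was lost without F6, F10 or M4 (−0.84 to −0.78, adjusted p = 0.0103 to 0.0155).

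Irf8, a factor of myeloid cells that works with IRF1 and other partners, went its own way. It stood at 2.90 CPM in F8, 4.2 in F6, 4.34 in F4, 4.57 in F10 and 4.77 in F2, and between 5.63 and 7.28 in vehicle females, with a median of 5.91 (chr8:120736358-120756694). All 5 treated females were below all 6 vehicle females, as in 4.34% of all tested genes. The fall was 1.48-fold (log2 fold change −0.56 ± 0.14, adjusted p = 0.00617), and the call was lost without any 1 of F1, F6, F8, F9 or F11 (−0.58 to −0.46, adjusted p = 0.0104 to 0.017) and with macrophage markers as a covariate (−0.57 ± 0.18, adjusted p = 0.0405). In males the median was 6.50 CPM under vehicle (4.25 to 7.54) and 5.21 under corticosterone (4.03 to 5.66), and 6 of 6 treated males were below the vehicle mean, though the groups overlapped (−0.31 ± 0.13, adjusted p = 0.0681). Irf8 was the one gene of the 9 that was not called between the treated sexes, with an estimate of 0.28 and a 95% interval from 0.00 to 0.56. Its counts were 59 to 169 per mouse.

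Ifit1 and Ifit3, antiviral proteins with tetratricopeptide repeats of which IFIT1 binds foreign RNA, lie near each other on chromosome 19 and varied most among the treated females. Ifit1 (chr19:34640871-34650009) ran from 2.49 to 5.14 CPM in vehicle females, with a median of 3.61, and stood at 3.20 in F8, 6.23 in F2, 6.79 in F6, 12.2 in F10 and 18.6 in F4. Apart from F8, each treated female was above all vehicle females. The rise was 2.51-fold (log2 fold change 1.33 ± 0.35, adjusted p = 0.00828). It lay close to the threshold: 16 of 32 alternative fits kept the direction but not the call, and the call was lost without any 1 of F1, F4, F6, F7, F9, F10, F11, M5, M6, M11 or M12, with estimates of 0.93 (without F4) to 1.41 and adjusted p of 0.01 to 0.0366. In males the median was 2.55 CPM under vehicle (2.15 to 5.59) and 2.95 under corticosterone (1.99 to 5.56), and the log2 fold change was 0.10 with a 95% interval from −0.58 to 0.77. Treated males were 2.94-fold below treated females (−1.55 ± 0.35, adjusted p = 0.00199).

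Ifit3 (chr19:34583531-34588731) ranged furthest of the 9 genes. It stood at 4.53 CPM in F8, 13.4 in F2, 14.3 in F6, 22.1 in F10 and 47.5 in F4, and between 5.28 and 10.6 in vehicle females, with a median of 7.01. F8 was below all the vehicle females and the other 4 were above them, with F4 at 6.24 times the vehicle mean. With this spread the log2 fold change of 1.42 ± 0.42 was not called (adjusted p = 0.0173), and without F8 it was 1.67 ± 0.38 (adjusted p = 0.00222). In males the median was 5.42 CPM under vehicle (4.32 to 12) and 6.0 under corticosterone (2.54 to 12), and the estimate was −0.03 with a 95% interval from −0.83 to 0.78. Treated males were 3.15-fold below treated females (−1.66 ± 0.43, adjusted p = 0.00459), a call that was lost without F4 (−1.07, adjusted p = 0.0296) and without F10, M2, M4 or M10 (−1.61 to −1.49). Ifit3 has a close copy, Ifit3b, beside it, so reads may have been divided between them. Counted alone, Ifit3b did not follow Ifit3: it fell in males (−1.46 ± 0.35, adjusted p = 0.00218) and had an estimate of 0.05 ± 0.35 in females (adjusted p = 0.929).

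Isg15, a ubiquitin-like protein that is joined to other proteins, resembled Ifit3. In vehicle females Isg15 (chr4:156199424-156200818) ran from 2.15 to 5.01 CPM, with a median of 3.47, and in treated females it was 2.36 in F8, 5.78 in F6, 7.0 in F2, 10.1 in F10 and 12.7 in F4. All treated females but F8, which was near the lowest vehicle female, were above every vehicle female. The log2 fold change of 1.1 ± 0.35 was not called (adjusted p = 0.0243), and without F8 it was 1.32 ± 0.31 (adjusted p = 0.00319). In males the median was 2.41 CPM under vehicle (1.46 to 4.83) and 2.22 under corticosterone (1.49 to 3.75), with an estimate of −0.19 and a 95% interval from −0.87 to 0.50. Treated males were 3.18-fold below treated females (−1.67 ± 0.36, adjusted p = 0.00127), and 4 of 6 were below all of them.

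Bst2, or tetherin, a membrane protein that holds budding virus particles at the cell surface, had the highest level per length of the 9. Bst2 (chr8:71534255-71537456) ran from 12.2 to 26 CPM in vehicle females, with a median of 17.4, and stood at 14.4 in F8, 29.5 in F4, 30.8 in F2, 31.7 in F6 and 41.7 in F10. Again 4 of 5 treated females were above all vehicle females, with F8 inside their range, and the log2 fold change was 0.67 ± 0.24 (adjusted p = 0.0405), not a call. Without F8 it was 0.84 ± 0.22 (adjusted p = 0.00541). In males the median was 14.8 CPM under vehicle (10.7 to 21.3) and 11 under corticosterone (9.40 to 18.8); 5 of 6 treated males were below the vehicle mean and M8 was above it (−0.38 ± 0.23, adjusted p = 0.195). Treated males were 2.47-fold below treated females (−1.30 ± 0.24, adjusted p = 0.000462), and 5 of 6 were below all of them.

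**Figure D3:**
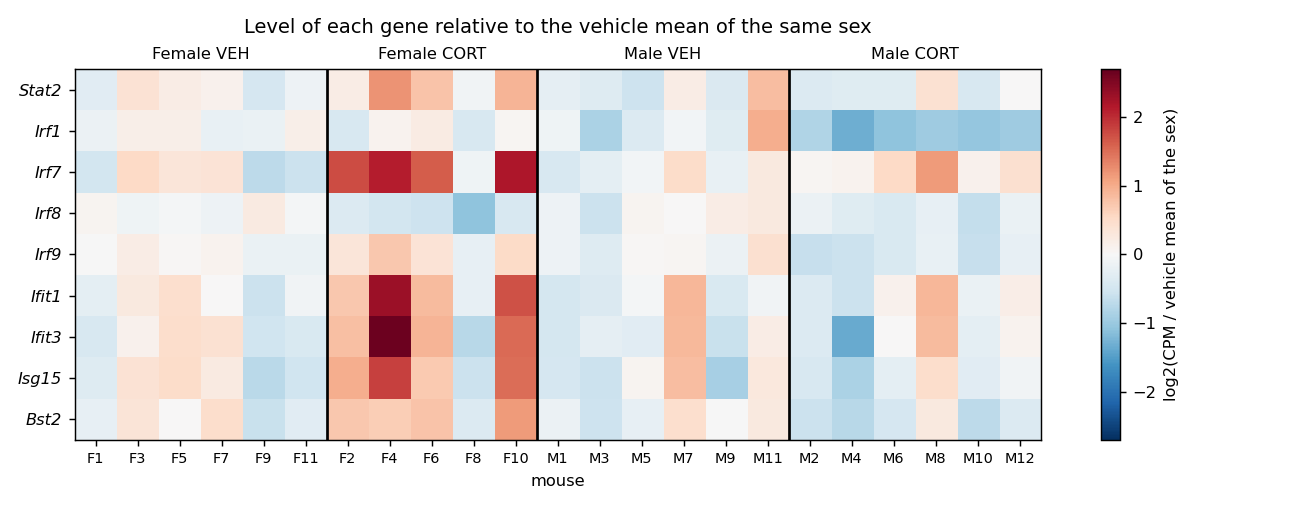
Log2 ratio of each of the 9 genes (rows) in each of the 23 mice (columns) to the vehicle mean of the same sex; red is higher and blue lower. F2, F4, F6 and F10 are red in most genes with Irf8 blue, F8 is blue in all 9, and among the treated males Irf1 is blue in all 6 while M8 is red in most genes.

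Across the mice, the 9 genes moved together. Taking the median over the 9 genes of each mouse's ratio to the vehicle mean of its sex, F4 stood at 2.34, F10 at 2.24, F6 at 1.70, F2 at 1.65 and F8 at 0.775. The treated males were between 0.663 in M4 and 1.34 in M8, and the vehicle mice were between 0.693 and 1.20 in females and between 0.766 and 1.36 in males. All the treated females but F8 were thus above every vehicle mouse and every treated male. Within groups, over the 23 mice, the pairwise Pearson correlation of the deviations in log2 CPM had a median of 0.756 over 36 pairs, from 0.299 to 0.95. Pairs with Irf8 had a median of 0.380. Irf9 followed the mean of the other genes most closely (0.929), and Irf1 (0.565) and Irf8 (0.456) least. These coefficients describe 23 libraries that share their scaling factors.

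The 10 genes whose within-group deviations were most like the mean of the 9 genes, over the 23 mice, were Gbp3 (Pearson 0.924), Phf11d (0.900), Xaf1 (0.897), Parp14 (0.893), Psmb8 (0.884), Rtp4 (0.883), H2-T23 (0.880), Iigp1 (0.872), Gm4951 (0.867) and Zbp1 (0.866). Psmb8, a subunit of the immunoproteasome, and H2-T23, a class I-like histocompatibility gene, were lower in treated males than in treated females (log2 fold changes −1.19 and −1.23, adjusted p = 0.00238 and 0.000577). In females, 1 of these 10 genes was called with corticosterone, Rtp4, where 13.4% of all tested genes were called. In males Gbp3 (−1.29, adjusted p = 0.0047), Psmb8 (−0.93, adjusted p = 0.00831) and Iigp1 (−1.73, adjusted p = 0.00498) were called, all lower, where 13.1% of all genes were called lower. Psmb8 had an estimate of 0.08 in females (adjusted p = 0.867).

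Interferon transcripts were hardly seen. Of 10 interferon genes looked at, 7 of type I, Ifng and 2 of type III, 22 of 23 mice had 0 counts on all 10, and M2 had 1 count on Ifng. A count of 0 allows up to 3 counts, or at most 0.166 CPM in a mouse, so levels under that were not detectable at this depth.

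Among the receptors, kinases and STATs of the pathway, corticosterone raised Ifnar2, a chain of the type I receptor, and Ifngr1 in females and lowered Ifngr2, the other chain of the interferon gamma receptor, in both sexes. Of 8 genes tested, 2 were called higher and 1 lower in females, where 7.40% of all tested genes were called higher and 13.4% in either direction. In males 0 were called higher and 1 lower, a share near the 13.1% of all genes called lower there. Ifngr2 fell from 124 ± 23.3 to 49.8 ± 13.8 CPM in females (−1.31 ± 0.15, adjusted p = 5.13e-06) and from 101 ± 7.14 to 52.8 ± 5.03 CPM in males (−0.93 ± 0.14, adjusted p = 1.98e-05). Ifnar2 went from 5.93 ± 1.34 to 11.5 ± 5.18 CPM in females (0.95 ± 0.25, adjusted p = 0.00792), with F8 the lowest treated female at 4.38 CPM, below all vehicle females, and 14 of 32 alternative fits did not call it. It was also lower in treated males than in treated females (−1.32 ± 0.25, adjusted p = 0.000599). The abundant kinase Jak1 and Stat3 were not called in any comparison, and the median of the 8 genes was −0.13 in females and −0.15 in males.

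Of 5 other IRF genes tested, Irf5 and Irf3 were called in males, where 26.3% of all tested genes were called. Irf5, a factor of myeloid cells, fell from 7.77 ± 4.87 to 1.5 ± 0.544 CPM (−2.38 ± 0.37, adjusted p = 3.42e-05), and all 6 treated males (0.838 to 2.25) were below all 6 vehicle males (3.06 to 14.1), as in 11.1% of all tested genes. The estimate for vehicle males against vehicle females was 1.25 ± 0.35 (adjusted p = 0.0604). Irf5 was not called there, between the treated sexes (−0.89 ± 0.38, adjusted p = 0.0649) or in the difference between the responses (−2.14 ± 0.51, adjusted p = 0.017). Irf3, which is present before any stimulus and starts interferon production, rose by a small amount (0.33 ± 0.09, adjusted p = 0.00753). In females 0 of 5 were called by edgeR, DESeq2 or limma-voom, and 3 had an unadjusted p under 0.05; without F8, 1 was called higher.

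Several sensors of viral RNA rose in females. Of 12 of 14 listed sensors and adaptors that were tested, 4 were called higher and 0 lower in females, with a median of 0.58: Dhx58 (0.99 ± 0.18), Ddx58 (0.90 ± 0.19), Ifih1 (0.63 ± 0.16) and Tlr7 (1.49 ± 0.36). Of all tested genes, 7.40% were called higher in females. Among 32 alternative fits, 2 did not call Dhx58 in females, 4 did not call Ddx58, 14 did not call Ifih1 and 11 did not call Tlr7. Dhx58, Ddx58 and Ifih1 encode cytoplasmic RNA helicases, LGP2, RIG-I and MDA5, and TLR7 is an endosomal RNA receptor. In males 1 of 12 was called, Tmem173 (STING, an adaptor for DNA sensing), which fell (−0.91 ± 0.23, adjusted p = 0.00365), and the median was −0.17. Dhx58 was called in the difference between the responses (−1.44 ± 0.25, adjusted p = 0.00607), but 17 of 32 alternative fits did not call it; without F8, 4 of 12 were called. Between the treated sexes 6 of 12 were called, all lower in males, where 1828 of the 13049 tested genes were called lower. Without F8, 8 of 12 were called lower, in a fit that called 17.6% of all genes lower in males. The adaptor Mavs and the kinase Tbk1 were not called in any comparison.

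Of the 4 genes that attach ISG15 to proteins or remove it, Usp18 and Ube2l6 were called higher in females. Usp18, the protease that removes ISG15 and also restrains the type I receptor, had an estimate of 1.05 ± 0.26 (adjusted p = 0.00476). The estimate for the conjugating enzyme Ube2l6 was 0.83 ± 0.22 (adjusted p = 0.00951). The call of Ube2l6 in females was lost in 23 alternative fits and kept in 9. That of Usp18 was lost in 9 and kept in 23. In males 0 of 4 were called by edgeR, 2 had an unadjusted p under 0.05 and DESeq2 called 1, and the estimates for Usp18 and Ube2l6 were 0.30 ± 0.25 and −0.10 ± 0.22. Treated males had less Ube2l6, Uba7 and Herc6 than treated females (−1.03 ± 0.23, −0.98 ± 0.25 and −1.44 ± 0.28). Of 5 tested feedback inhibitors, among which Usp18 is counted again, the phosphatase Ptpn2 was called lower in females (−0.34 ± 0.08, adjusted p = 0.00589). This call of Ptpn2 was lost in 13 alternative fits and kept in 19. In males 0 of 5 were called by edgeR or DESeq2, with 2 at an unadjusted p under 0.05. Pias1 and Socs3 were not called in either sex.

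A wider list of 42 other type I interferon-stimulated genes, 35 of them tested, went the same way as most of the 9 genes. In females 35 of 35 estimates were positive, with a median log2 fold change of 0.60, and 5 were called, all higher, where 7.40% of all tested genes were called higher. Without F8, 14 were called higher, in a fit that called 10.9% of all genes higher. Lgals3bp, a secreted glycoprotein, went from 31.2 ± 6.13 to 105 ± 56.0 CPM (1.75 ± 0.32, adjusted p = 0.00052), with its lowest treated female, at 18.7 CPM, below all the vehicle females. Isg20, an RNA exonuclease, rose by 1.38 ± 0.23 on the log2 scale, Rtp4 by 1.17 ± 0.27 and Tor3a by 0.68 ± 0.13. The abundant Ifi27l2a and Ifi27, at 150 ± 93.0 and 89.7 ± 51.7 CPM in treated females, varied too much to be called (adjusted p = 0.0686 and 0.0101). In males 30 of 35 estimates were negative, with a median of −0.30, 1 was called higher (Tor3a, 0.66 ± 0.13) and 3 lower (Ifit3b, Dtx3l and Samhd1). Treated males were lower than treated females in 35 of 35, with a median of −0.91, and 22 were called, where 1828 of the 13049 tested genes were called lower. Without F8, 29 were called, in a fit that called 17.6% of all genes lower in males. In males 5 were called lower without F8, where 14.2% of all genes were called lower. The difference in response was called in 1 with F8, where 0.690% of all genes were called. Without F8 it was called in 7, all lower, where 5.04% of all genes were called lower.

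The interferon gamma-inducible GTPases and chemokines differed from that list in their medians within each sex. Of 15 tested, 9 were called lower in males and 0 higher, with 15 of 15 estimates negative and a median of −1.29, where 13.1% of all tested genes were called lower. The vehicle males M7 and M11 weighed on this count: 6 were called lower without M7 (median −1.16) and 5 without M11 (median −0.83), again with 15 of 15 negative. Summed over the list of 18, M11 stood at 331 CPM and M7 at 215, the other vehicle males at 84.2 to 129 and the treated males at 66.4 to 91.9, so the groups overlapped. In females 0 were called by edgeR or DESeq2, 3 had an unadjusted p under 0.05 and the median was −0.08. Without F8, 1 was called higher in females. Gbp4, a guanylate-binding protein, ran from 5.08 to 44.1 CPM in vehicle males and from 1.27 to 2.92 in treated males, without overlap (−3.10 ± 0.48, adjusted p = 3.41e-05). M7 and M11 held the highest Gbp4, at 26.9 and 44.1 CPM, and the call was kept in 32 of 32 alternative fits, each without M7 and without M11 among them. Tgtp2 fell by 2.63 ± 0.52 on the log2 scale in males, Cxcl9, a chemokine for T cells, fell by 2.07 ± 0.38 and Gbp9 fell by 1.45 ± 0.30. In females Gbp4 had an estimate of −1.25 ± 0.47 (adjusted p = 0.0538), and 4 of 5 treated females were between 1.96 and 3.58 CPM, below all the vehicle females (8.15 to 12.8), with F4 at 9.44. Irgm1 and Irgm2, the most abundant of the list that were not called, were between −0.59 and −0.08 on the log2 scale in both sexes. Between the treated sexes 15 of 15 estimates were negative, the same way as the type I list, with a median of −0.76. Of the 15, 4 were called lower in males, where 1828 of the 13049 tested genes were called lower. The difference between the male and the female response was negative in 15 of 15, with a median of −1.59. It was called in 0 of 15 by edgeR, with 9 at an unadjusted p under 0.05, in 4 of 15 by DESeq2 and in 4 of 15 without F8, so a fall limited to males was not shown. Tgtp1 and Tgtp2 are near-identical copies, and reads may be divided between them.

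**Figure D4:**
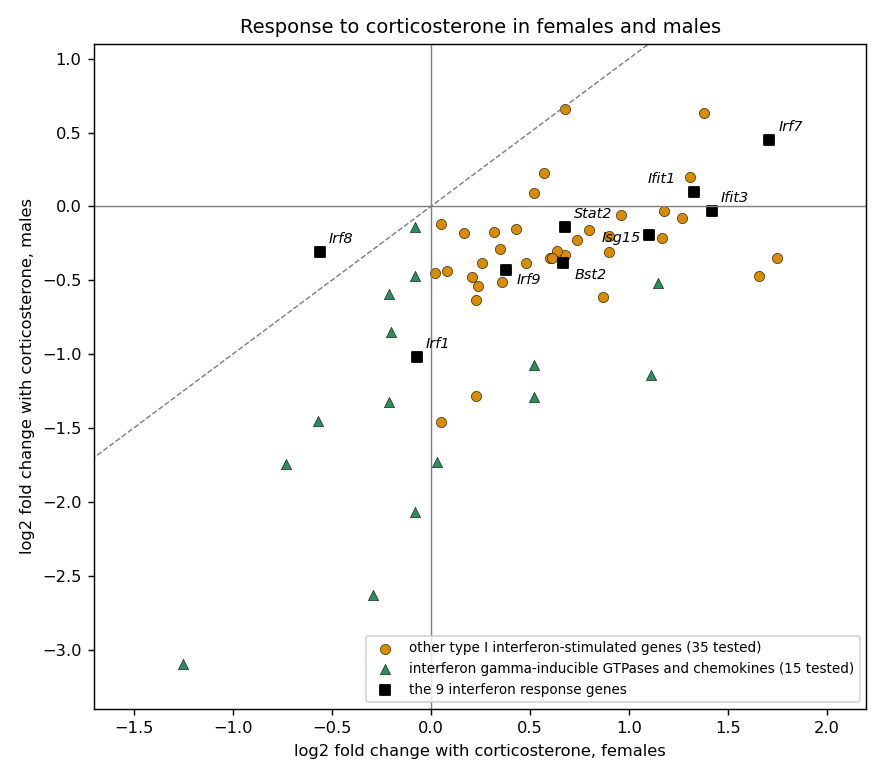
Log2 fold change with corticosterone in females (horizontal axis) against that in males (vertical axis) for the 9 genes (squares, named), 35 other type I interferon-stimulated genes (circles) and 15 interferon gamma-inducible GTPases and chemokines (triangles); the dashed line marks equal change. All circles lie right of 0, with medians of 0.60 in females and −0.30 in males, and all triangles lie below 0 in males, with a median of −1.29.

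Genes with the response element in their promoter were also compared as a set. Only the 9 genes were left out, so tested genes of the lists above that hold the element stay in it. Of the 42 listed other type I interferon-stimulated genes, 32 had a promoter window to search, and the element was found in 14 of these. Of the 18 listed interferon gamma-inducible GTPases and chemokines, 11 had a window, and it was found in 10 of these. Of 343 tested genes that held the response element, the 9 genes left out, 21.6% were called lower in treated males than in treated females, against 14.1% of 9906 tested genes with a promoter window. With corticosterone in females 9.91% were called higher, against 7.65%, and the medians were 0.07 and 0.04. Of 803 tested genes with the gamma-activated sequence, the 9 genes left out, 14.6% were called lower in treated males than in treated females and 13.8% were called lower with corticosterone in males, against 14.1% and 13.2% of genes with a window. These shares are descriptions, and most genes with either motif were not called in these comparisons.

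The levels of other cells' marker genes moved with the results in females. Of 6 macrophage markers, all tested and none at 0 in any mouse, 6 had positive estimates in females and Mertk was called (1.13 ± 0.23, adjusted p = 0.00144). Of all tested genes, 7.40% were called higher in females. Between the treated sexes 3 of the 6 were called lower in males, where 1828 of the 13049 tested genes were called lower. Without F8, 3 were called higher in females, where 10.9% of all genes were called higher. In that fit 5 were called lower between the treated sexes, where 17.6% of all genes were called lower. Summed over the 6, they were at 44.0 to 87.0 CPM in vehicle females, 47.4 in F8, 85.9 in F4, 93.8 in F2, 138 in F10 and 142 in F6, and at 41.3 to 60.0 in treated males and 29.6 to 101 in vehicle males. F8, lowest in the 9 genes, was thus lowest of the treated females in these markers too, while F4, highest in the 9 genes, was within the range of the vehicle females. With the mean log2 CPM of the 6 markers as a covariate, Irf9 was the 1 of 9 genes still called between the treated sexes (−0.86 ± 0.18, adjusted p = 0.00726), with 8 of 9 estimates negative (−1.58 to −0.65) and 8 of 9 genes at an unadjusted p under 0.05, and in females 0 of 9 were called by edgeR, with 5 at an unadjusted p under 0.05 (Irf7, 1.39 ± 0.37, adjusted p = 0.0181). Without F6 and F10, Irf9 was again the 1 gene called between the treated sexes (−0.94 ± 0.17, adjusted p = 0.00215), and Irf7 the 1 gene called in females (1.52 ± 0.36, adjusted p = 0.00984).

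Adipocyte markers differed more. The sum of 3, Adipoq, Plin1 and Cidec, none at 0 in any mouse, was 13.1 to 359 CPM in vehicle females, 14.4 in F8, 298 in F4, 1020 in F2, 1030 in F10 and 2080 in F6, and 32.7 to 219 in treated males. Without F8, 3 of 3 were called lower in treated males than in treated females, in a fit that called 17.6% of all genes lower in males. Hence F8 had little adipocyte marker RNA and F2, F6 and F10 had much. In females 0 of the 3 markers were called by edgeR or DESeq2, and 3 had an unadjusted p under 0.05. With the mean log2 CPM of these markers as a covariate, 5 of 9 genes were called between the treated sexes (Irf7, Irf9, Ifit1, Isg15 and Bst2) and 2 in females (Irf7, 1.39 ± 0.34, and Irf8, −0.67 ± 0.16). Hepatocyte markers, which should be absent from muscle, summed to 917 CPM in F6, 2050 in F10, 2050 in M8, 1230 in M9 and 1200 in M12, and to at most 254 in the other mice; M8 was the treated male with the highest level of most of the 9 genes. The part of these markers in the results was not tested beyond these fits.

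**Figure D5:**
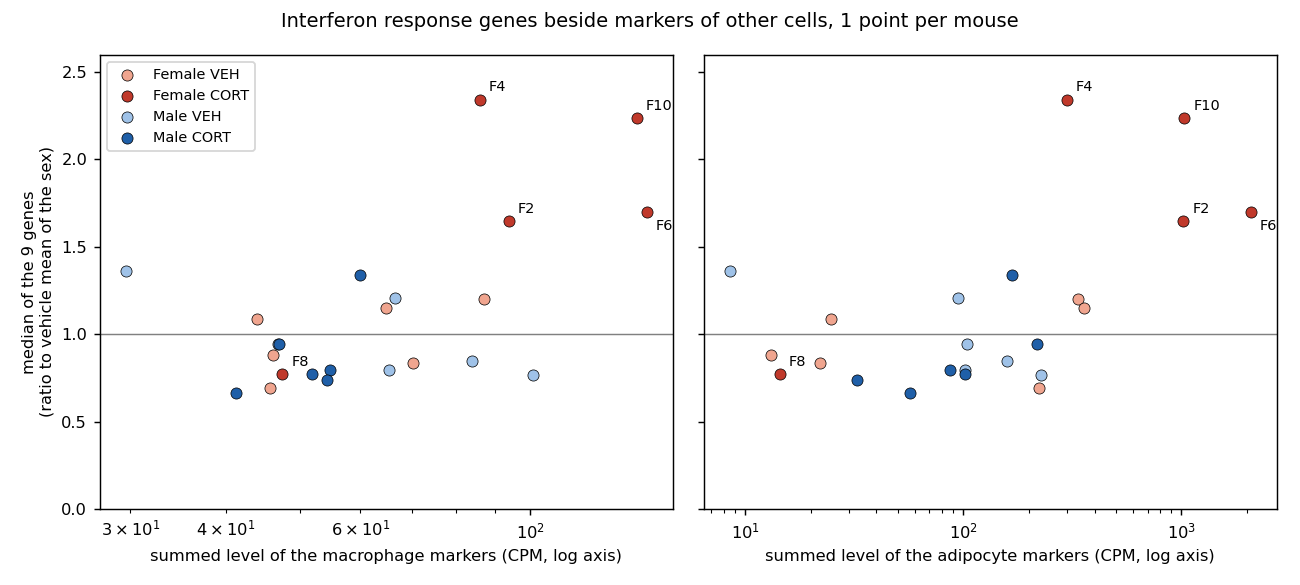
Median ratio of the 9 genes to the vehicle mean of the sex (vertical axis) in each mouse against the summed CPM of 6 macrophage markers (left) and 3 adipocyte markers (right), both on log axes; the treated females are named. F6 and F10 lie furthest right for macrophage markers, F8 lies among the vehicle mice in both panels, and F4, at 2.34, has 85.9 CPM of macrophage markers.

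Markers of other white blood cells were low. Of 10 lymphocyte markers, 0 passed the filter, and they summed to 0.227 to 0.914 CPM in treated females and 0.880 to 4.44 in vehicle females, and to 0.162 to 0.574 in treated and 0.665 to 2.95 in vehicle males, with 3 to 8 of the 10 at 0 in each treated mouse. Of 6 dendritic cell markers 2 were tested, and Cd209a fell in both sexes (−4.44 ± 0.40 in males and −2.95 ± 0.38 in females). Of 4 neutrophil markers 1 was tested, S100a8, which rose in both (2.22 ± 0.60 and 2.91 ± 0.68), at levels of at most 3 CPM. The treated males, in which Irf1 and the interferon gamma-inducible genes fell, thus had lymphocyte sums below those of all vehicle males, and the part of these markers in that fall was not tested. Erythrocyte markers rose in both sexes, with 3 of 3 called higher (Hbb-bs, 1.48 ± 0.34 in females and 1.30 ± 0.33 in males), and the median of their sum was 422 CPM in treated and 111 in vehicle females, with overlapping ranges. Of 3 fibroblast markers, Col1a1, a chain of type I collagen, fell in males (−3.26 ± 0.36), and Col1a1 and Pdgfra were lower in treated males than in treated females (−2.49 ± 0.36 and −0.56 ± 0.13). The 3 fibroblast markers summed to 289 to 453 CPM in treated males and 428 to 668 in treated females. The part of the erythrocyte and fibroblast markers in the results of the 9 genes was not tested. Of 5 glucocorticoid receptor targets, 5 were called higher in males and 1, Fkbp5, in females (3.36 ± 0.30 and 3.05 ± 0.30).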

How the data were processed

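RNA from quadriceps of 23 mice was sequenced as stranded 100-base pairs. Per the labels and methods, the authors aligned reads to mm10 (STAR 2.7.3a) and counted them per gene (HTSeq 0.12.4, Ensembl 97); the deposited values are raw counts. Entries for reads on no gene (10.7 to 15.3%) were left out. Symbols, positions and exon lengths came from GENCODE M21 (GRCm38; 55480 of 55573 identifiers). Genes with over 20 median-of-ratios normalized counts in at least 4 mice of a group were tested with edgeR 4.0.16 in R 4.3.3: TMM factors (0.832 to 1.21), which also scale the CPM, 1 quasi-likelihood fit of 4 group means, Benjamini-Hochberg over all genes, calls under 0.01. Intervals are at 95% and were built from the standard error with the normal distribution, so they are somewhat narrower than the quasi-likelihood test implies. The p-values rest on the spread between mice. Alternatives were DESeq2 1.42.0, limma-voom (limma 3.58.1), other filters and scalings, each sex alone, a replicate block and 23 fits without 1 mouse; marker covariates and the fit without F6 and F10 were added after seeing the data. The code was tested on simulated data.

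The 9 genes and all lists were chosen with earlier results of these data known. All 9 genes were named. From each list, up to 4 called genes with the smallest p in either sex and up to 2 abundant uncalled genes were named by rule. The 10 genes of most like pattern were ranked by Pearson's coefficient of within-group log2 CPM deviations (prior count 1). Ifit3b, Dtx3l, Samhd1, Tmem173 and Herc6 were chosen after their values were seen. An item of the lists is not reported here.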

Additional observations from a re-analysis of the deposited data

Results flagged for a closer look

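In 4 of 36 combinations of gene and group, 1 mouse lay apart from the rest of its group by Dixon's criterion, which chance alone meets in about 1 of 20. Irf1 was at 28.6 CPM in the vehicle male M11 and Ifit1 at 5.59 CPM in the vehicle male M7. In the treated male M8, Irf7 was at 13.1 and Bst2 at 18.8 CPM. M8 also carried 2050 CPM of hepatocyte markers, and the part of that in its levels was not tested. F8 did not meet the criterion in any of the 9 genes.

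The male and the female response differed by the interaction test in 2 genes of the related lists. The difference on the log2 scale was −1.44 in Dhx58 and −0.87 in Dtx3l, a ubiquitin ligase induced by interferon, each with the male response below the female. Neither call was firm: of 32 alternative fits, 17 did not call Dhx58 and 23 did not call Dtx3l.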

How the results depend on the processing

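Of the 9 genes, the number called in males was 1, and 2 by limma-voom; in females it was 3, and 0 with each sex fitted alone, 0 with the macrophage covariate and 1 without F6 and F10. For the difference in response it was 0, and 1 by DESeq2 and 2 by limma-voom. Between the treated sexes it was 8, and 5 with the adipocyte covariate, 1 with the macrophage covariate and 1 without F6 and F10. The estimates of the 8 genes ran from −1.67 to −0.89, and from −1.58 to −0.82, −1.58 to −0.65 and −1.74 to −0.71 under those 3. The cause of these changes was not tested. Leaving out 1 mouse at a time gave 1 to 2 in males, 1 to 6 in females, 0 to 3 for the difference, 0 to 0 between the vehicle sexes and 5 to 8 between the treated sexes. The 5 came without F10 and without M4, and the 6 without F8.

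With the replicate block, 2 genes were called between the treated sexes (Irf9 and Bst2), 0 for the difference and 0 between the vehicle sexes. Equal numbers did not pair mice by the correlation of their deviations (−0.377 to 0.477 over 11 numbers, 4 males correlating best with their own number). No paired analysis was possible within a sex because treated and vehicle mice share no numbers.

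Estimates that changed sign were never called. In males they were Ifit3 (0.24 without M7, 0.02 without M11, 0.03 without M2, 0.14 without M4, 0.02 without M10 and −0.30 at the lowest, without M8), Isg15 (0.06 without M7, lowest −0.37 without M8), Stat2 (0.10 without M11, lowest −0.29 without M8) and Ifit1 (−0.14 without M8, highest 0.37 without M7). In females Irf1 was 0.01 without F2 and 0.01 without F8, with −0.17 at the lowest, without F6. Between the vehicle sexes Irf1 was −0.00 by limma-voom, −0.04 with the replicate block and −0.25 without M11 (highest 0.19 without M3), and Irf8 −0.01 without M9 and −0.02 without M11 (highest 0.12 without M3).

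Over all genes, the calls for the difference went from 90 to 896 by DESeq2, 693 by limma-voom, 10 with no filter, 7 and 1 with the adipocyte and macrophage covariates, 3 without F6 and F10, and 1 to 893 without 1 mouse. In females they went from 1748 to 561 with each sex alone, 811, 551 and 529 under the same 3 additions, and as low as 1004 without 1 mouse; between the treated sexes from 3043 to 1651, 262, 533 and 1885; and between the vehicle sexes from 125 to 284 by DESeq2. With a log2 fold change over 1 also required, calls were 982 in males, 732 in females, 40, 75 and 1014.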
